A study of Homo sapiens with 4 samples.

Results

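Aldehyde dehydrogenases were followed through 10 genes (ALDH3A1, ALDH3A2, ALDH3B1, ALDH1A1, ALDH1A3, ALDH1B1, ALDH2, ALDH7A1, ALDH9A1 and ALDH16A1), taken by symbol from tables of 61471 gene names. The symbols were selected on their counts and fold changes in this very comparison, so every difference given for them is a description. Whether the test across all genes called a member is stated, but this is no independent support, since the same values chose it. RNA came from MDA-MB-231, an established breast cancer line that lacks hormone receptors and HER2 amplification. All libraries were labelled wild type and came from cells carrying an EGFP fusion to histone H2B together with RFP under a CMV promoter. The EGFP negative group (2 libraries) was labelled as having increased extravasation, the passage of tumour cells out of blood vessels. The EGFP positive group (2 libraries) was labelled as having no such increase. EGFP status and extravasation changed together and cannot be told apart. The labels do not say whether libraries came from separate cultures, so errors and p-values measure no more than how these libraries differ, and that may be technical.

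Aldehyde dehydrogenases oxidise aldehydes to carboxylic acids with NAD or NADP as the electron acceptor. Members differ in substrate and place: some make retinoic acid from retinal, some clear acetaldehyde in mitochondria, and others act on the long-chain aldehydes released from lipids or on intermediates of amino acid and carnitine metabolism. Their summed activity is widely used as a marker of stem-like cells in breast cancer, and ALDH1A1 and ALDH1A3 are the isoforms most often linked with it.

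Gene counts summed to 11445076 to 12635576 per library, and 3 counts, the smallest number treated here as detection, corresponded to 0.241 to 0.26 CPM, the unit in which depth is evened out between libraries. All 7 markers of this line that were examined (VIM, CD44, EGFR, AXL, CAV1, MSN and FOSL1) had mean levels of at least 349 CPM. ESR1, PGR, FOXA1 and CDH1 had 0 to 3 counts in each library, while ERBB2 averaged 97.1 CPM in EGFP negative and 81.1 CPM in EGFP positive cells. Of 12 markers of leukocytes, endothelium and fibroblasts, CD3E, CDH5 and DCN were among those at 0 in all libraries. The 12 summed to 10.5 and 9.86 CPM in EGFP negative and to 5.97 and 3.65 CPM in EGFP positive libraries. PECAM1 (3.41 and 0.78 CPM) and PDGFRB (5.16 and 2.51 CPM) were higher in EGFP negative cells, and the part of these markers in any result below was not tested. PDGFRB was not called without EGFP positive library 2 (adjusted p = 0.34), nor when EGFP negative library 1 was left out (adjusted p = 0.063). In bulk RNA, fewer cells expressing a gene and less RNA per cell cannot be told apart.

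Because the family arose by duplication, the first question was whether reads of its members could be told apart. Among the 45 pairs of the 10 coding sequences (GENCODE 29, GRCh38), the longest stretch of identical bases was 9 to 25 bases, and the closest pair, ALDH1B1 and ALDH2, was identical at 73.8% of aligned bases. Stretches of 90 bases were compared without gaps and within a single exon of each gene. The stretch in which the chromosome 17 neighbours ALDH3A1 and ALDH3A2 resemble each other most still holds 18 differences. It lies in exon 5 of 11 of ALDH3A1 (chr17:19742017-19742106, minus strand) and in exon 4 of 10 of ALDH3A2 (chr17:19656472-19656561, plus strand), and capitals mark the differing bases.
ALDH3A1: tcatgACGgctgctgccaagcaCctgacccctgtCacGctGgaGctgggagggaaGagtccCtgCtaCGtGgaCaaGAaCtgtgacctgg
ALDH3A2: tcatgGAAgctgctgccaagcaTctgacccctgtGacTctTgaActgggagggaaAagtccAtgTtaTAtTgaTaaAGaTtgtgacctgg

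ALDH7A1 has a close copy in its processed pseudogene ALDH7A1P1 on the same chromosome. Pseudogenes of the other members were not searched for, and untranslated regions of the members were not compared. ALDH7A1P1 was identical to the ALDH7A1 coding sequence at 97.4% of 1533 aligned bases, with a longest identical run of 155 bases. Compared without gaps and within a single exon, the 90 bases in which they differ most hold 4 differences. These bases lie in exon 1 of 18 of ALDH7A1 (chr5:126595025-126595114, minus strand) and in the pseudogene (chr5:77290268-77290357, plus strand), with the differing bases in capitals.
ALDH7A1: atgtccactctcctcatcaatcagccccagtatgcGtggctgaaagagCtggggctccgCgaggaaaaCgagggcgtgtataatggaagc
ALDH7A1P1: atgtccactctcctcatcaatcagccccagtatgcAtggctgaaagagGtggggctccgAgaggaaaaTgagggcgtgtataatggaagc
Counts of the pair are accordingly reported together with the gene itself.

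Among the listed genes, transcripts of the ALDH3 subfamily members ALDH3A1, ALDH3A2 and ALDH3B1 were higher in EGFP negative cells, as was ALDH7A1, while mitochondrial ALDH1B1 was lower. ALDH3A1 was close to absent from EGFP positive cells and clearly present in EGFP negative cells. ALDH9A1, the most abundant member per length of transcript, differed little. Of the 10 members, 9 passed the filter on low counts. By edgeR's quasi-likelihood test across 16413 genes (adjusted p under 0.05), 4 of the 9 were called higher and 1 lower, beside 9.4% of all tested genes called higher, 9.46% called lower and 18.9% called in either direction. The groups did not overlap for 8 of the 9, with 5 higher and 3 lower, beside 57.4% of all tested genes (28.1% higher and 29.3% lower). Since these values chose the members, nothing is read from the counts. The median log2 fold change was 0.21 over the 9 members and -0.0028 over all tested genes. Every fold change sets EGFP negative over EGFP positive cells.

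**Figure D1:**
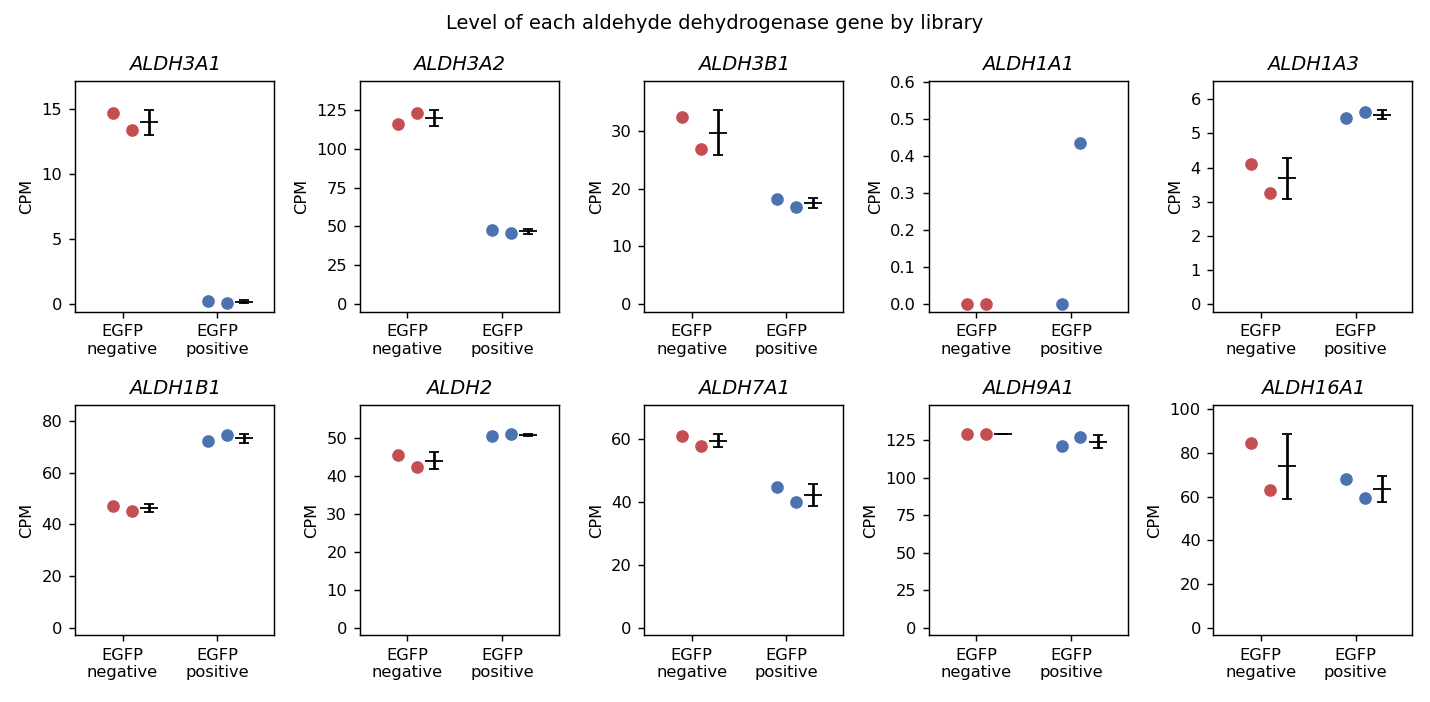
Level of each of the 10 genes in CPM (vertical axes, each gene on its own scale from 0). Points are libraries, and the black mark and bar to their right give mean and SD (n = 2), left out for ALDH1A1. ALDH3A1 sits at 14.7 and 13.4 CPM in EGFP negative and at 0.26 and 0.0868 CPM in EGFP positive libraries, whereas the ALDH16A1 points of the groups interleave.

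ALDH3A1 (chromosome 17, 19737984 to 19748393, minus strand) encodes an enzyme that oxidises medium-chain and aromatic aldehydes and is best known from the cornea. It had 183 and 156 counts in the EGFP negative libraries, against 3 and 1 in the EGFP positive libraries. Both EGFP positive libraries were thus at or under the detection floor. The ratio of the summed counts, 339 and 4, scaled for library size, was 81.1 with a 95% counting interval of 31.4 to 299. The fitted log2 fold change was 6.26 ± 0.37 (SE). With so few counts on the EGFP positive side this value moved with single libraries, to 7.17 when EGFP positive library 1 was left out and to 5.70 without the other.

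ALDH3A2 (chromosome 17, 19648136 to 19685760, plus strand) encodes the fatty aldehyde dehydrogenase of the endoplasmic reticulum, whose loss causes Sjögren-Larsson syndrome. It had 116 and 123 CPM in EGFP negative libraries, against 48 and 45.7 CPM in EGFP positive libraries. The groups were far apart relative to their spread, with a 2.56-fold higher mean and a log2 fold change of 1.35 ± 0.09 (SE). ALDH3B1 (chromosome 11, 68008578 to 68029276), a membrane-associated enzyme for medium- and long-chain aldehydes, had 32.5 and 26.9 CPM in EGFP negative libraries. It had 18.2 and 16.8 CPM in EGFP positive libraries, a log2 fold change of 0.76 ± 0.14 (SE). The EGFP negative libraries differed more from each other here than the EGFP positive ones, yet the groups did not overlap. All ALDH3 members of the list were therefore called higher.

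ALDH3A2 and ALDH3A1 lie 52.2 kb apart on the short arm of chromosome 17, with SLC47A2, on the minus strand, starting between them and overlapping the end of ALDH3A2. Their neighbours were looked at after these values were seen. Within 250 kb on either side, 3 further protein-coding genes could be tested, of which 1 was called higher and 0 lower by edgeR. SLC47A1, which encodes an exporter of organic cations, had 46 and 26 counts in EGFP negative libraries, against 2 and 3 in EGFP positive libraries. Its log2 fold change was 3.71 ± 0.56 (SE; edgeR adjusted p = 0.00033). The autophagy kinase gene ULK2 averaged 3.37 and 1.86 CPM in EGFP negative and EGFP positive cells (adjusted p = 0.098), and AKAP10, encoding a kinase anchor protein, 43.8 and 36.7 CPM (adjusted p = 0.20, and 0.0037 without EGFP negative library 1). SLC47A2 and RNF112 had 0 to 2 counts per library. The order along the chromosome was SLC47A1, ALDH3A2, SLC47A2 and ALDH3A1.

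RefSeq promoter windows (GRCh38.p14, 250 bases before to 50 after a start) were at hand for 7 of the 10 members, 9 windows in all. They were searched on both strands for GCGTG, the core of the element bound by the aryl hydrocarbon receptor, a factor known to induce ALDH3A1 in liver cells, and for TGACNNNGC, the core of the antioxidant response element. GCGTG occurred in 2 of the 9 windows, the window of ALDH1A3 and 1 of the 2 windows of ALDH3A2, each with 2 matches, and TGACNNNGC in 0, while 36.5% and 13.3% of all 35116 promoter windows held them. ALDH1A3 was not called and had the lower mean in EGFP negative cells. The ALDH3A2 window is shown because that gene is the more abundant, with GCGTG in capitals (chr17:19648501-19648800, plus strand). Only GCGTG and TGACNNNGC were searched for, so other motifs may overlap the matches.
ALDH3A2 promoter: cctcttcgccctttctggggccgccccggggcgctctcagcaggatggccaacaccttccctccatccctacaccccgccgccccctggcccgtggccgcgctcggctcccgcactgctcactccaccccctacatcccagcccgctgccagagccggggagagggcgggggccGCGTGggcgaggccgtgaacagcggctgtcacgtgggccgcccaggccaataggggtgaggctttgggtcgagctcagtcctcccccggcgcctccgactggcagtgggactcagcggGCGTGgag
These matches describe letters only. No window of ALDH3A1 was examined.

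The 3 tested protein-coding genes with a pattern most like that of ALDH3A1 were SPANXB1, NDP and LZTS1. Likeness was the Euclidean distance of log2 CPM centred on each gene's mean over the 4 libraries, and these genes lay at 0.662, 1.39 and 1.42. SPANXB1, a cancer-testis gene with near-identical relatives, had 1121 and 1015 counts in EGFP negative and 25 and 16 in EGFP positive libraries. NDP had 17 and 17 counts in EGFP negative libraries and LZTS1 17 and 16, and both had 0 in the EGFP positive ones. Among the listed aldehyde dehydrogenases, only ALDH3A1 was at or under the floor in both EGFP positive libraries and well above it in the EGFP negative ones.

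ALDH1A1 and ALDH1A3, which oxidise retinal, were scarce in every library. ALDH1A1 (chromosome 9, 72900671 to 72953056) had 0 and 0 counts in EGFP negative libraries and 0 and 5 in EGFP positive libraries. It did not pass the count filter, and 0 counts allow a level of up to 0.257 CPM in an EGFP negative library. ALDH1A3 (chromosome 15, 100879831 to 100916626) had 4.1 and 3.26 CPM in EGFP negative libraries, against 5.45 and 5.64 CPM in EGFP positive libraries. The groups did not overlap, but the log2 fold change of -0.59 ± 0.25 (SE) was not called in the main fit or in any of 9 alternatives. Of the exon bases of ALDH1A3, 34.5% also belong to exons of ALDH1A3-AS1 on the opposite strand. Counting used no strand option, and the antisense gene itself had 2 and 14 counts in EGFP negative and 2 and 4 in EGFP positive libraries, so the level of ALDH1A3 is uncertain. ALDH1A2, the remaining gene of the ALDH1A class, had 0 counts in all 4 libraries.

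The mitochondrial enzymes ALDH1B1 and ALDH2, both known for oxidising acetaldehyde, differed between groups in the same direction. ALDH1B1 (chromosome 9, 38392702 to 38398661) had 47.3 and 45.2 CPM in EGFP negative libraries, against 72.2 and 74.6 CPM in EGFP positive libraries. The groups were well apart, with a log2 fold change of -0.67 ± 0.10 (SE), and this was the only listed gene called lower. ALDH2 (chromosome 12, 111766887 to 111817532) had 45.7 and 42.5 CPM in EGFP negative libraries, against 50.7 and 51.1 CPM in EGFP positive libraries. Its groups did not overlap, but the log2 fold change of -0.21 ± 0.10 (SE) was not called. ALDH1A1, ALDH1A3, ALDH1B1 and ALDH2 together summed to 97.1 and 91 CPM in EGFP negative and to 128 and 132 CPM in EGFP positive libraries.

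ALDH7A1 (chromosome 5, 126531200 to 126595336), also called antiquitin, oxidises the semialdehyde formed in lysine breakdown. It had 60.9 and 57.8 CPM in EGFP negative libraries, against 44.6 and 39.8 CPM in EGFP positive libraries. The log2 fold change of 0.49 ± 0.11 (SE) was called, but not without EGFP positive library 2, when it was 0.41. The pseudogene ALDH7A1P1 had 802 and 864 counts in EGFP negative and 669 and 677 in EGFP positive libraries, a log2 fold change of 0.25 that was not called (adjusted p = 0.11, and 0.0020 without EGFP negative library 1). It held 51.4% (95% Wilson interval 48.9 to 53.9) and 56.1% (53.6 to 58.6) of the pair's counts in EGFP negative libraries. In EGFP positive libraries it held 56.5% (53.6 to 59.3) and 59.6% (56.8 to 62.5). The pseudogene had more counts than the gene in each of the 4 libraries. Summed into one gene, a choice made after these values were seen, the pair gave a log2 fold change of 0.36 ± 0.09 (SE).

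ALDH9A1 (chromosome 1, 165662216 to 165698562) oxidises trimethylaminobutyraldehyde on the way to carnitine. It had 129 and 129 CPM in EGFP negative libraries, against 121 and 127 CPM in EGFP positive libraries, a log2 fold change of 0.06 ± 0.08 (SE) that was not called. ALDH16A1 (chromosome 19, 49453225 to 49471050), a family member thought to have no catalytic activity in mammals, had 84.4 and 63.2 CPM in EGFP negative libraries. It had 67.8 and 59.5 CPM in EGFP positive libraries, and the groups overlapped. Its log2 fold change of 0.21 ± 0.13 (SE) rested on EGFP negative library 1: it was -0.01 without that library, and 0.42 and called without EGFP negative library 2.

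**Figure D2:**
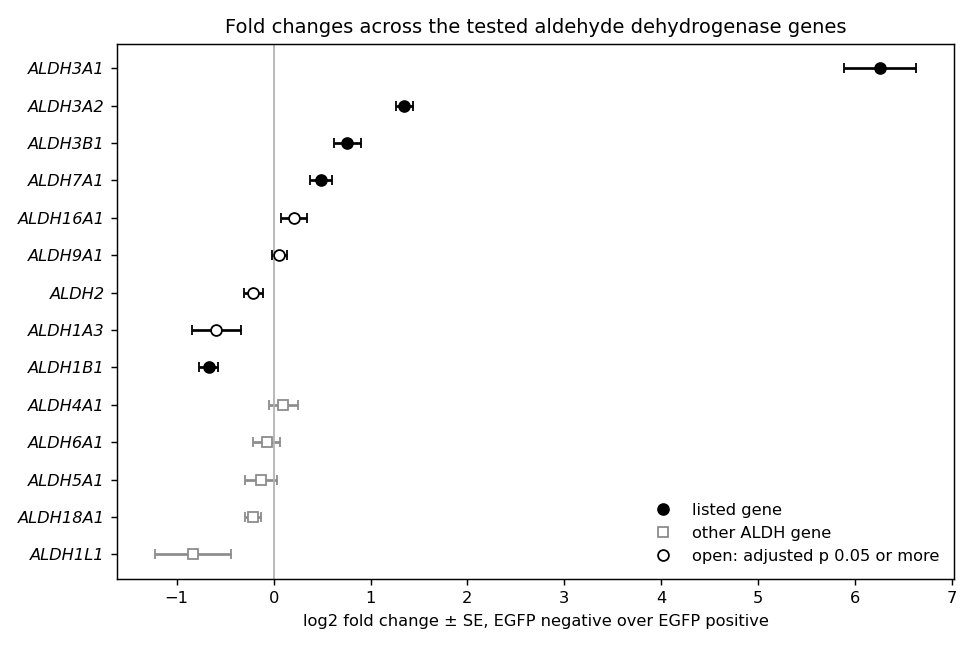
Log2 fold change, EGFP negative over EGFP positive (horizontal axis), with its SE for the 9 listed genes tested (circles) and 5 other aldehyde dehydrogenase genes tested (squares). Filled symbols mark genes called in the test across all genes: ALDH3A1, ALDH3A2, ALDH3B1 and ALDH7A1 to the right of 0 and ALDH1B1 to the left, all chosen with these values known.

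The order of the levels was read on a scale per length, CPM per kilobase of counted exon, with ALDH7A1 taken without its pseudogene. In EGFP negative cells ALDH9A1 led at 53.9 ± 0.0599, followed by ALDH3A2 at 25.2 ± 1.05 and ALDH16A1 at 23.8 ± 4.82 (SD, n = 2), whose ranges overlapped. ALDH1B1 came next at 15.3, then ALDH7A1 at 11.1 and ALDH3B1 at 10.1 with overlapping ranges, ALDH3A1 at 6.33, ALDH2 at 4.59 and ALDH1A3 at 0.74. In EGFP positive cells ALDH9A1 also led, at 51.7 ± 1.71 (SD, n = 2). ALDH1B1 followed at 24.3, then ALDH16A1 at 20.5 and ALDH3A2 at 9.86, with no overlap between neighbours. ALDH7A1 at 7.89, ALDH3B1 at 5.98, ALDH2 at 5.3 and ALDH1A3 at 1.12 followed, and only ALDH1A1 and ALDH3A1, at 0.103 and 0.0781, had overlapping ranges. ALDH3A2 and ALDH1B1 thus traded places between the groups.

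Summed over the 10 genes, the family reached 520 ± 21.4 CPM in EGFP negative cells and 424 ± 5.49 CPM in EGFP positive cells (SD, n = 2 each). The libraries were at 535 and 505 CPM in EGFP negative and at 428 and 420 CPM in EGFP positive cells. The mean difference was 95.6 CPM, and ALDH3A1 and ALDH3A2 together differed by 86.9 CPM. Without those 2 genes the sums were 404 and 368 CPM in EGFP negative and 380 and 375 CPM in EGFP positive libraries, and the groups overlapped. This remainder still held members called in opposite directions, ALDH3B1 and ALDH7A1 higher and ALDH1B1 lower.

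Shares of the family total shifted from ALDH1B1 towards ALDH3A2. ALDH3A2 held 21.7% (95% Wilson interval 20.8 to 22.7) and 24.4% (23.4 to 25.6) of the summed counts in EGFP negative libraries. In EGFP positive libraries it held 11.2% (10.4 to 12.1) and 10.9% (10 to 11.8). ALDH1B1 held 8.84% (8.19 to 9.55) and 8.96% (8.26 to 9.72) in EGFP negative libraries, against 16.9% (15.9 to 17.9) and 17.8% (16.7 to 18.9) in EGFP positive libraries. ALDH3A1 held 2.75% (2.38 to 3.17) and 2.65% (2.27 to 3.09) in EGFP negative libraries, and 0.0606% (0.0206 to 0.178) and 0.0206% (0.00364 to 0.117) in EGFP positive ones. These intervals cover counting error only. Among the listed genes, ALDH9A1 held the largest share in each library. It held 24.8 ± 0.995% in EGFP negative and 29.2 ± 1.34% in EGFP positive cells (SD, n = 2 each), although its CPM hardly differed. All these shares leave out the counts of ALDH7A1P1. With them added, ALDH7A1 had 1539 counts in EGFP negative library 2, against 1505 for ALDH9A1. ALDH9A1 stayed ahead in EGFP negative library 1 (1608 against 1560) and in the EGFP positive libraries (1398 against 1185 and 1460 against 1135).

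The remaining mean shares were smaller or closer. ALDH2 held 8.48 ± 0.0866% in EGFP negative and 12 ± 0.227% in EGFP positive cells. ALDH16A1 held 14.1 ± 2.29% and 15 ± 1.2%, within the spread of its libraries, and ALDH7A1 11.4 ± 0.0557% and 9.94 ± 0.685% (SD, n = 2 each, EGFP negative first in each pair). ALDH3B1 held 5.7% in EGFP negative and 4.12% in EGFP positive cells, and ALDH1A3 0.705% and 1.31%. Per kilobase of exon, ALDH3A2 held 16.7 ± 1.45% in EGFP negative and 7.78 ± 0.218% in EGFP positive cells, and ALDH1B1 10.1 ± 0.138% and 19.1 ± 0.563% (SD, n = 2 each). The direction of these shifts was the same on both scales.

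**Figure D3:**
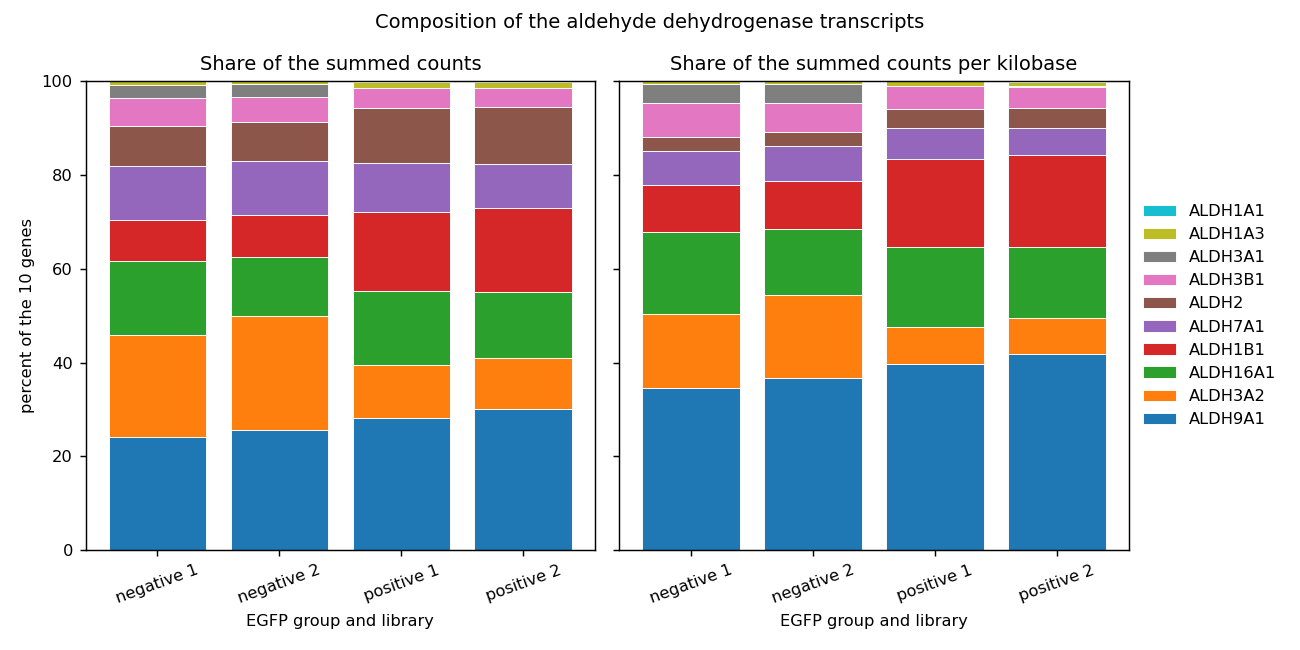
Composition of the 10 genes in each library as percent of their summed counts (left) and of their summed counts per kilobase of exon (right). Each bar is a library and adds up to 100 percent. The ALDH3A2 segment is wider in both EGFP negative libraries and the ALDH1B1 segment narrower, and a segment for ALDH3A1 is visible only there.

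The other 9 human aldehyde dehydrogenase genes were measured for comparison. Of these, 5 passed the count filter, and edgeR called 0 higher and 0 lower. At an unadjusted p under 0.05, 0 were higher and 1 was lower, and DESeq2 called 0. The lower gene was ALDH18A1, which makes the precursor of proline and was the most abundant of them at 124 ± 1.58 CPM in EGFP negative and 144 ± 3.46 CPM in EGFP positive cells (SD, n = 2 each). Its log2 fold change was -0.21 ± 0.08 (SE; adjusted p = 0.098), and it was called when either EGFP negative library was left out (adjusted p = 0.039 without library 1 and 0.023 without library 2). ALDH1L1, a formyltetrahydrofolate dehydrogenase, had 21 and 19 counts in EGFP negative and 23 and 45 in EGFP positive libraries. ALDH4A1, ALDH5A1 and ALDH6A1, mitochondrial enzymes of amino acid and GABA breakdown, averaged 18.4, 12.5 and 18.8 CPM in EGFP negative cells and 17.2, 13.6 and 19.7 CPM in EGFP positive cells. ALDH1L2, ALDH3B2 and ALDH8A1 had 0 to 5 counts per library. Over all 19 genes the sum was 710 and 683 CPM in EGFP negative and 623 and 621 CPM in EGFP positive libraries.

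Genes that supply, use or clear the same aldehydes were read from lists, with the test across all 16413 genes. The lists were chosen with earlier results of these data known, so their calls are a description and no independent support. Every list count stands beside 9.4% of all tested genes called higher and 9.46% called lower. For retinoic acid, 10 of 20 genes of retinol and retinal handling were tested, with 2 called higher and 1 lower and a median log2 fold change of 0.04. DHRS3, which reduces retinal back to retinol, averaged 2.13 and 0.78 CPM in EGFP negative and EGFP positive cells (adjusted p = 0.044). RDH11, also a retinal reductase, averaged 109 and 89.2 CPM (adjusted p = 0.036), and RDH14 13.6 and 19.2 CPM (adjusted p = 0.030). DESeq2 called 0 genes of this list, and no call of these 3 held without EGFP positive library 1 (adjusted p = 0.11 to 0.35) or 2 (adjusted p = 0.12 to 0.32). DHRS3 also lost its call without EGFP negative library 2 (adjusted p = 0.18).

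Receptors of retinoic acid were higher in EGFP negative cells in part. Of 6 tested genes among 10 receptors and targets, 2 were called higher and 0 lower, with a median of 0.45; at an unadjusted p under 0.05 there were 3 and 1, and DESeq2 called 2 and 0. RXRA, the shared partner of many nuclear receptors, had 172 and 142 CPM in EGFP negative and 99.2 and 91.9 CPM in EGFP positive libraries (log2 fold change 0.72 ± 0.10, SE; adjusted p = 2e-04). RARG, a retinoic acid receptor, had 42.3 and 40 CPM in EGFP negative and 24.4 and 25.3 CPM in EGFP positive libraries (log2 fold change 0.73 ± 0.11, SE; adjusted p = 0.00047). RARA did not pass, with a log2 fold change of -0.02.

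In the aryl hydrocarbon receptor pathway, which is known to induce ALDH3A1, 6 of 9 genes were tested. Of these, 1 was called higher and 0 lower, with a median of 0.09; at an unadjusted p under 0.05 there were 2 and 2, and DESeq2 called 1 and 0. The called gene was CYP1B1, a target of the receptor, with 44.7 and 43.7 CPM in EGFP negative and 17.6 and 18.9 CPM in EGFP positive libraries (log2 fold change 1.27 ± 0.12, SE; adjusted p = 4.4e-06). CYP1A1, the classical target, had a log2 fold change of -0.75 ± 0.27 (SE) and did not pass, and neither did the receptor gene AHR at -0.24 ± 0.10 (SE) or TIPARP at 0.27 ± 0.10 (SE).

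For the lipid aldehydes handled by ALDH3A2, 9 of 10 genes were tested, with 1 called higher and 1 lower and a median of -0.11; at an unadjusted p under 0.05 there were 2 and 1, and DESeq2 called 1 and 1. SPHK1, which phosphorylates sphingosine, averaged 11.3 and 23.4 CPM in EGFP negative and EGFP positive cells (adjusted p = 3e-04). PHYH, which starts the breakdown of phytanic acid, averaged 20.7 and 13.2 CPM (adjusted p = 0.0058) and lost its call without EGFP positive library 1 or 2 (adjusted p = 0.054 and 0.062). SGPL1, the lyase that releases a fatty aldehyde from sphingosine phosphate, had a log2 fold change of -0.21 ± 0.10 (SE) and did not pass.

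In the lysine and choline routes, 3 genes were lower in EGFP negative cells. Of 5 genes tested among 11, edgeR called 0 higher and 3 lower, with a median of -0.46; at an unadjusted p under 0.05 there were also 0 and 3, and DESeq2 called 0 and 1. AASS, which starts lysine breakdown upstream of ALDH7A1, had 42 and 43.1 CPM in EGFP negative and 59.1 and 62.4 CPM in EGFP positive libraries (log2 fold change -0.51 ± 0.10, SE; adjusted p = 0.0025). It was not called without EGFP positive library 2 (adjusted p = 0.063). GCDH, further down the lysine route, averaged 34.2 and 47 CPM in EGFP negative and EGFP positive cells (adjusted p = 0.022), and was not called without EGFP positive library 1 (adjusted p = 0.21). CHDH, which makes betaine aldehyde from choline, had 3 and 7 counts in EGFP negative and 23 and 19 in EGFP positive libraries (adjusted p = 0.012; 0.074 without EGFP positive library 1). Its log2 fold change was -2.10, and -2.85 without EGFP negative library 2.

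Among genes of polyamine and amine oxidation, 9 of 12 were tested, with 0 called higher and 2 lower and a median of -0.07; the counts at an unadjusted p under 0.05 and by DESeq2 were also 0 and 2. MAOA, the mitochondrial monoamine oxidase that yields aldehydes, had 8.03 and 8.31 CPM in EGFP negative and 30.4 and 27 CPM in EGFP positive libraries (log2 fold change -1.81 ± 0.15, SE; adjusted p = 1.6e-06). ODC1, the first enzyme of polyamine synthesis, averaged 210 and 257 CPM in EGFP negative and EGFP positive cells (adjusted p = 0.016), and was not called without EGFP positive library 1 or 2 (adjusted p = 0.27 and 0.23).

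Other enzymes that clear aldehydes split, with 4 called higher and 1 lower of 12 tested among 14 and a median of 0.03; at an unadjusted p under 0.05 there were 4 and 1, and DESeq2 called 3 and 1. AKR1C1, an aldo-keto reductase with near-identical relatives, had 53 and 46 counts in EGFP negative and 6 and 10 in EGFP positive libraries (adjusted p = 0.00037). AKR7A2 averaged 68.5 and 42.4 CPM in EGFP negative and EGFP positive cells (adjusted p = 0.00036), and PTGR1, which reduces unsaturated aldehydes from lipid oxidation, 41.1 and 26.3 CPM (adjusted p = 0.0015). AOX1, aldehyde oxidase, had 75.9 and 82.6 CPM in EGFP negative and 151 and 159 CPM in EGFP positive libraries (log2 fold change -0.97 ± 0.09, SE; adjusted p = 4.2e-06). Of the 8 alcohol dehydrogenase genes only ADH5, which clears formaldehyde bound to glutathione, could be tested. It averaged 106 and 85.4 CPM in EGFP negative and EGFP positive cells (adjusted p = 0.028), and was not called without EGFP positive library 1 or 2 (adjusted p = 0.26 each).

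Genes used beside aldehyde dehydrogenase activity to mark stem-like breast cancer cells also went in both directions, with 2 called higher and 3 lower of 8 tested among 12 and a median of -0.06; at an unadjusted p under 0.05 there were 3 and 3, and DESeq2 called 1 and 3. LGR5, a receptor of R-spondins, had 43 and 61 counts in EGFP negative and 8 and 1 in EGFP positive libraries (log2 fold change 3.44 ± 0.53, SE; adjusted p = 0.00043). The value was 5.48 when EGFP positive library 1 was left out and 2.63 without the other. CD44, the hyaluronan receptor, had 620 and 662 CPM in EGFP negative and 859 and 872 CPM in EGFP positive libraries (adjusted p = 0.00083). EPCAM, an epithelial adhesion molecule, averaged 6.84 and 13 CPM in EGFP negative and EGFP positive cells (adjusted p = 0.0021), and MYC 141 and 175 CPM (adjusted p = 0.019). MYC was not called without EGFP positive library 1 or 2 (adjusted p = 0.30 and 0.21).

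**Figure D4:**
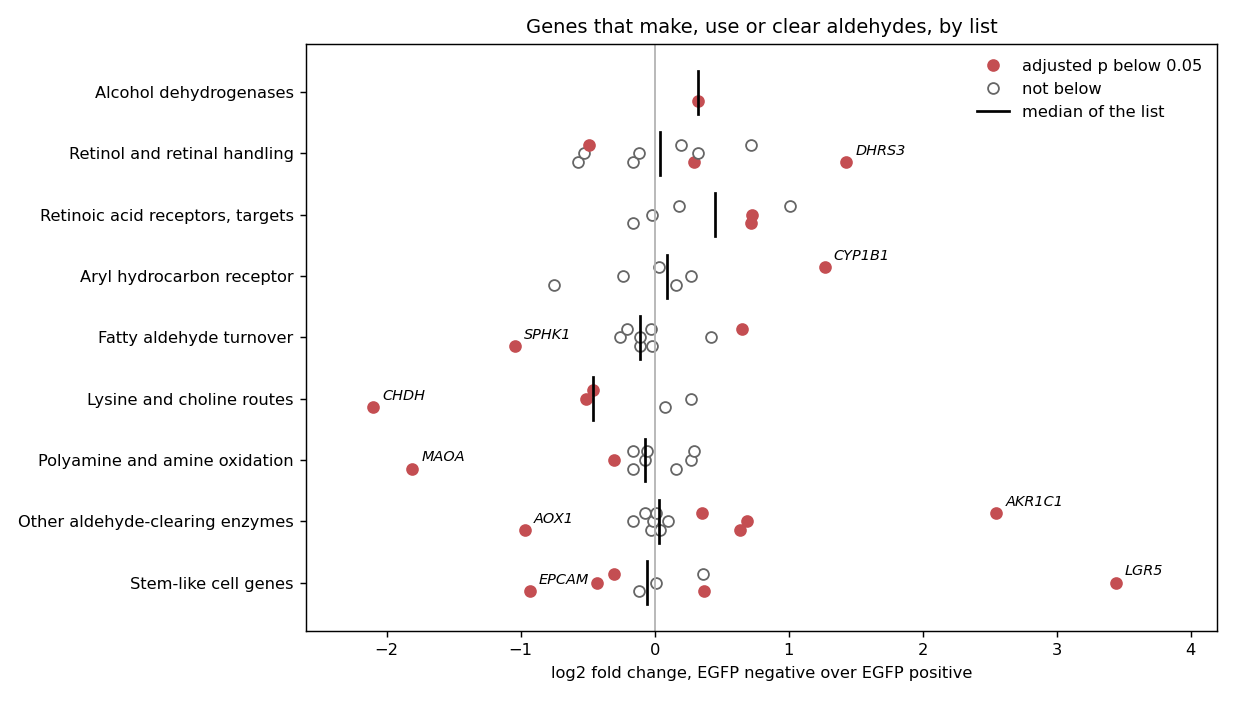
Log2 fold change of each tested gene, EGFP negative over EGFP positive (horizontal axis), by list (vertical axis). Filled points have an adjusted p under 0.05 and black bars are list medians, which run from -0.46 for lysine and choline routes to 0.45 for retinoic acid receptors and targets. Called genes changed by over 0.9 on the log2 scale are named.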

How the data were processed

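Raw counts per gene name were deposited, 1 table for each of 4 libraries, made from polyA-selected RNA with a stranded kit per the labels' protocols. Per the file headers the authors made them with featureCounts 2.0.1 on paired reads, over exons of the GENCODE 46 basic annotation grouped by gene name, with no strand option, so in these counts sense and antisense reads could not be told apart. The aligner is not given in the sources used here. The submitters' processing notes name Subread, GRCh37 and hg19, while the coordinates in the tables are those of GRCh38, the build used throughout.

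Group and replicate number came from the labels. The 10 genes and all lists were chosen with earlier results of these data known. Genes were filtered with filterByExpr (minimum count 10, minimum total 15), which left 16413 of 61471. EdgeR 4.0.16 (R 4.3.3) fitted all 4 libraries by quasi-likelihood with group as the only term and TMM scaling (factors 0.987 to 1.009). P-values were two-sided and adjusted by Benjamini-Hochberg over all tested genes at 0.05. The biological coefficient of variation was 7.52%. An exact permutation of 2 against 2 libraries cannot go below p = 0.33. CPM used TMM-scaled library sizes, CPM per kilobase also the exon length in the tables, and a standard error was the log2 fold change over the square root of F. The distance to ALDH3A1 used a pseudocount of 0.5. Sequences were aligned with Biopython 1.88.

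On simulated counts for this comparison (16413 genes, 200 changed), the share found by edgeR was 56.7% for a 1.5-fold change (67 genes), 88.1% for a 2-fold change (67 genes) and 97% for a 4-fold change (66 genes). Of 168 calls made there, 7 were false. The changed genes were drawn from those above 1 CPM, and every gene had the same biological coefficient of variation. Recovery of scarcer or more variable genes was therefore not examined. Alternatives were RLE size factors, no filter, a filter of 1 CPM in 2 libraries, DESeq2 1.42.0, a replicate block, each library left out, and the sum of ALDH7A1 with its pseudogene, chosen after seeing the data. Named were all aldehyde dehydrogenase genes, from each list up to 4 called genes of smallest adjusted p or else the 2 most abundant, and the 3 genes nearest to ALDH3A1. The chromosome 17 neighbours, RARA, CYP1A1, AHR, TIPARP, SGPL1 and ALDH7A1P1 lie outside that rule and were chosen after their values were seen. Figures were drawn with matplotlib 3.10.9. The value of 1 marker gene is not reported here.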

Additional observations from a re-analysis of the deposited data

How the results depend on the processing

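Depth limits the scarce genes most: ALDH3A1 had 3 and 1 counts in EGFP positive libraries, and ALDH1A1 had 0 and 0 in EGFP negative and 0 and 5 in EGFP positive libraries. Among the listed genes 4 higher and 1 lower calls were also made with RLE size factors, no filter, the stricter filter, DESeq2 and the replicate block. Leaving out each library gave 3 to 5 higher and 1 lower. The summed CPM of the 10 genes was 505 to 535 in EGFP negative and 420 to 428 in EGFP positive cells without 1 library, and 521 and 424 with RLE factors. Without EGFP negative library 1 the log2 fold change was reversed for ALDH16A1 (-0.01; 0.42 without library 2), ALDH4A1 (-0.02; 0.21) and ALDH5A1 (0.07; -0.34), and without EGFP negative library 2 for AXL (0.00; -0.12 without library 1). Over all genes, calls without 1 library ranged from 720 to 2477 higher and from 715 to 2465 lower, beside 1543 and 1552 with all; DESeq2 called 1044 higher and 997 lower. Genes of the pathway lists numbered 13 higher and 11 lower. Leaving out a library gave 7 to 15 higher and 7 to 15 lower, and no filter gave 8 higher. Of the other aldehyde dehydrogenases 0 to 1 were lower without 1 library. Shares of the family total moved by more than 1 SD in 15 of 20 values per kilobase and in 17 of 20 with all 19 genes in the total, which changes the denominator. Over all named genes and alternatives, 426 values kept their direction and their side of the threshold, 35 lost their call and 11 gained one. The 4 reversed values given above were called in neither fit, so they also kept their side. The cause of these shifts was not tested. With the replicate number as a block, 2297 genes were higher and 2407 lower, and 1 of the other aldehyde dehydrogenases, ALDH18A1, was lower. The numbers do not pair the libraries by the labels, and deviations of same-numbered libraries had a correlation, across genes, of 0.101, with only 2 pairs.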
